A study of Mus musculus with 5 samples.

Results

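The genes described here encode the proteins of the cytosolic ribosome. They are the protein-coding genes whose symbol starts with Rpl or Rps followed by a digit, without the Rps6k kinases, plus Rplp0, Rplp1, Rplp2 and Rpsa. The rule gave 91 genes out of 21631 that code for protein on chromosomes 1 to 19 or X. The genes were chosen by symbol, but the group itself was selected on the number of its members with a PU.1 site in the list described here, so these numbers are given as a description. It takes symbols as they stand, so that 14 of the 91 are paralogues, retrogene-like or pseudogene-like copies or, in the case of Rps19bp1, the gene of a protein that binds a ribosomal protein. The other 77 divide into 46 genes of the large and 31 of the small subunit.

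The study mapped the binding of PU.1, the product of Spi1, by ChIP-seq with the antibody T-21 in AML-246, a p53-/- mouse acute myeloid leukaemia that carries a hairpin against PU.1 (shPU.1). Spleen cells of leukaemic C57BL/6 recipients came from mice given doxycycline (Dox) for 2 days, which shuts off the hairpin and restores endogenous PU.1 (PU.1 high, 3 libraries), or from untreated mice (PU.1 low, 2 libraries). Loss of p53 and the hairpin construct are shared by both groups, and the labels state no age for the mice. The labels call the libraries of a group technical replicates and name 1 leukaemia, and the file has no expression values against which the cell type could be checked. The data are 1 list of 11111 binding sites called for PU.1 high against PU.1 low, of which 11106 lie on chromosomes 1 to 19 and X, each with the position of its summit and a score. The score is the authors' own value on a −log10 scale. It ranks how surely a site stands out and is not a fold change.

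PU.1 belongs to the ETS family, whose members bind DNA around a GGAA core. PU.1 prefers purine-rich sequence before the core, as in GAGGAAGT, whereas many other ETS factors prefer CCGGAAGT. Ribosomal protein genes are short, are transcribed at a high rate in nearly all growing cells and have compact promoters in which ETS-type motifs are common. Their transcription usually begins at a C within a run of pyrimidines, which lets mTOR signalling control the translation of their mRNAs. A site is assigned to a gene here by distance alone.

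Ribosomal protein genes had PU.1 sites directly at their ends more often than other genes did, and where the strand is known the sites within 100 bp stood at the start of transcription. A site lay within 100 bp of either end in 12 of the 91 genes (13.2%, 95% Wilson interval 7.71 to 21.6), against 448 of the 21540 other protein-coding genes (2.08%), a ratio of 6.34 (95% interval 3.71 to 10.8). Within 1 kb the counts were 18 of 91 (19.8%) against 6.35% of other genes, a ratio of 3.11 (2.05 to 4.73). Within 10 kb they were 28 of 91 (30.8%) against 22.3% of other genes, a ratio of 1.38 (1.01 to 1.88). This last interval reached below 1 without chromosome X (ratio 1.35, 0.986 to 1.85) and under further settings given with the alternatives. The nearest site lay between 1 and 10 kb away for 10 ribosomal protein genes (10.99%, interval 6.08 to 19.1), against 15.98% of other genes. That interval includes the share of other genes, and a gene with a nearer site cannot count here. Of the genes with a site within 10 kb, 42.9% had one within 100 bp among the ribosomal protein genes and 9.31% among the others.

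These shares are descriptions, since the genes and the windows were proposed with this list of sites already examined, and no test was made of them. The intervals cover counting error only. No value per library exists in the list, so the depth and the spread between libraries are unknown. The shares rest on sites of modest score. With sites of score 10 or more alone, 1 of 91 genes (1.10%) had a site within 100 bp, against 0.613% of other genes, and 6 of 91 (6.59%) had one within 10 kb, against 9.09% of other genes. Both ratios to other genes then had intervals that spanned 1 (0.253 to 12.7 and 0.334 to 1.57).

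**Figure D1:**
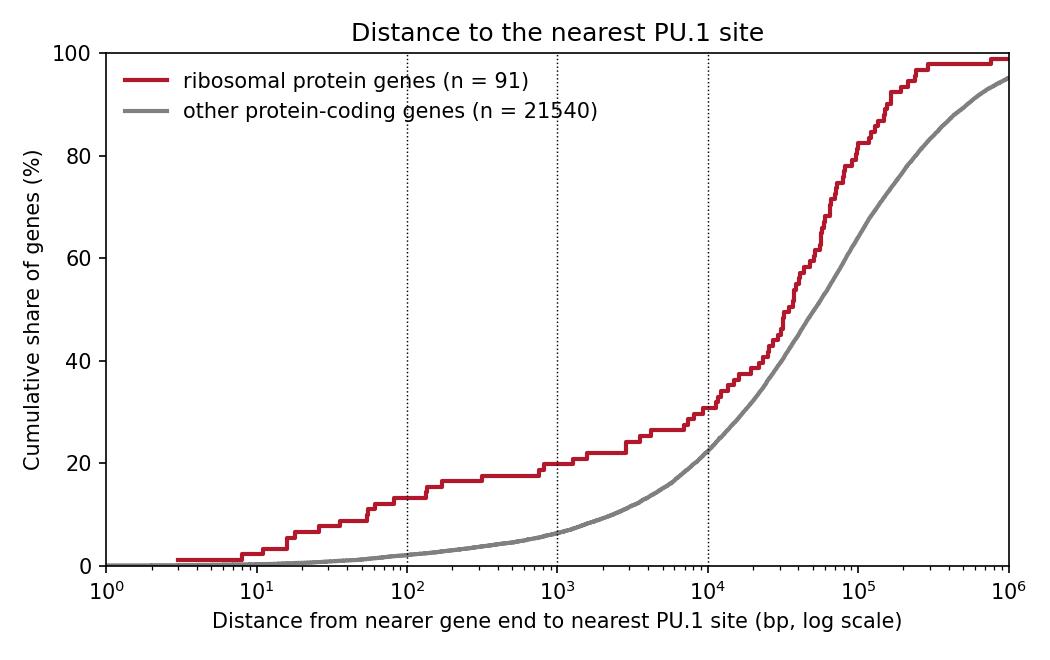
Cumulative share of genes (vertical axis, %) by distance from the nearer gene end to the nearest PU.1 site (horizontal axis, bp, log scale) for the 91 ribosomal protein genes (red) and the 21540 other protein-coding genes (grey), with dotted lines at 100 bp, 1 kb and 10 kb. The red curve is at 13.2% and the grey curve at 2.08% by 100 bp, and they are at 30.8% and 22.3% by 10 kb.

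The 12 genes with a site within 100 bp were mostly genes of the large subunit. They included Rpl21, Rpl26, Rpl28, Rpl30, Rpl31, Rpl36a, Rpl37 and Rpl37a of the large subunit, Rps15 and Rps29 of the small subunit, and Rps19bp1, whose protein binds Rps19 and is not part of the ribosome. Large subunit genes thus had a site in 8 of 46 cases (17.4%, interval 9.09 to 30.7) and small subunit genes in 3 of 31 (9.68%, interval 3.35 to 24.9), and these intervals overlap widely. Each of the 12 genes had 1 site, and 10 of the 12 summits lay just outside the gene. The strand is known for 8 of these genes from a RefSeq promoter table, and in all 8 the site stood at the start of transcription. Across the 70 members with a known strand, 8 (11.4%) had a site within 100 bp of the start, against 1.97% of other genes, and 0 had one within 100 bp of the other end, against 15 of 17204 other genes (0.0872%). That share is so low among other genes that a count of 0 among 70 does not set the members apart at this end. In the wider windows the ratio to other genes was no lower at the transcription end than at the start. It was 3.76 (1.23 to 11.5) at the end and 2.95 (1.71 to 5.10) at the start within 1 kb, on 3 and 11 members, and 2.01 (1.32 to 3.04) and 1.69 (1.17 to 2.46) within 10 kb, with overlapping intervals each time. Within 10 kb, however, a site can count at both ends of a short gene. The median span was 3.2 kb for ribosomal protein genes and 17.4 kb for other genes. Although 17 members counted at the transcription end within 10 kb, only 7 sites were nearer that end, against 17 nearer the start. The 10 kb ratio at the end thus does not show an excess at that end itself.

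The same sites can be read on the promoter sequence itself. RefSeq promoters (GRCm38.p6, with the same coordinates as mm10) were found for 70 of the 91 genes, each reaching from 250 bases before to 50 bases after a transcription start. A site lay inside such a window in 10 of the 70 genes (14.3%, interval 7.95 to 24.3), against 514 of 17204 other genes (2.99%). Of these 10, 6 are shown from 150 bases before the start to 30 bases from it, 5′ to 3′ on the strand of the gene, to show where the ETS core lies relative to the summit. Capitals mark each GGAA and its reverse complement TTCC. The start of transcription is base 151 of each line.
Rpl37, chr15:5116463-5116642, + strand: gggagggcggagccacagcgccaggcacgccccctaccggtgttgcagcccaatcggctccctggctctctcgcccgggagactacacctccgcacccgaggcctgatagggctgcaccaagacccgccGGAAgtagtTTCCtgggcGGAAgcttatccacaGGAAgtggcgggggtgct
Rpl31, chr1:39367701-39367880, + strand: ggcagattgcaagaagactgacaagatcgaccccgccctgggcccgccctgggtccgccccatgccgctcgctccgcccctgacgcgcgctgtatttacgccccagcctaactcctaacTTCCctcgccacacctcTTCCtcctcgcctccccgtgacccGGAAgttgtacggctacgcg
Rpl36a, chrX:134585504-134585683, + strand: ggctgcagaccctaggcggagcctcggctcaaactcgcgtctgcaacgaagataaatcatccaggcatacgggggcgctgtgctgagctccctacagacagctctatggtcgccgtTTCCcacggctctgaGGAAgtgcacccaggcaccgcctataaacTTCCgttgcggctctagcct
Rpl28, chr7:4792815-4792994, + strand: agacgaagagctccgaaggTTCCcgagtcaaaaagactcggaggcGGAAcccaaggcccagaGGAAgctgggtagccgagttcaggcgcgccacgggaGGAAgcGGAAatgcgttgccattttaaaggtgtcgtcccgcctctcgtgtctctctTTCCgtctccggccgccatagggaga
Rps15, chr10:80292281-80292460, + strand: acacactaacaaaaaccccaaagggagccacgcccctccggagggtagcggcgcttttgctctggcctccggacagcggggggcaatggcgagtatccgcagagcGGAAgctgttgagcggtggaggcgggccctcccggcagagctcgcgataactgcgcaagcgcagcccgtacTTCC
Rpl18, chr7:45717921-45718100, + strand: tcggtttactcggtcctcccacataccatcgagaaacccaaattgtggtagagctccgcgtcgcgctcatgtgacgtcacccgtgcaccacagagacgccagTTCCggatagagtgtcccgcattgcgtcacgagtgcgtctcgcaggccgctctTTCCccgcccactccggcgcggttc

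Rpl37 (chromosome 15, 5116613 to 5119140), a zinc-finger protein of the large subunit, had the highest score of all sites near these genes. Its summit at 5116605, base 143 of the printed line, scored 16.4 and ranked 986th among the 11106 sites. It lay 8 bp before the start of Rpl37 and 43 bp from an end of Card6, a caspase recruitment domain gene, and was the only one of the 12 with another protein-coding gene end within 1 kb. The printed stretch holds 4 copies of the core, the nearest centred 2.5 bp from the summit, and includes a CCGGAAGT, whose CCGGAAG was centred 12 bp from it.

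Rpl31 (chromosome 1, 39367851 to 39371911), which lies near the exit of the peptide tunnel, had a summit at 39367840, 11 bp before the start, with a score of 8.84. The centre of a GAGGAA on the opposite strand lay 0.5 bp from this summit, at base 140 of its line, and a CCGGAAG, part of a CCGGAAGT, was centred 22 bp from it, after the start. Rpl36a (chromosome X, 134585654 to 134588062) had a summit at 134585638, 16 bp before the start, with a score of 7.75. It was the only one of the 10 promoters with the full GAGGAAGT, whose GAGGAA was centred 2.5 bp from the summit, at base 135. An end of Btk, the B cell and myeloid kinase gene, lay 2.01 kb from this site.

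Rpl28 (chromosome 7, 4792965 to 4794547), a large subunit protein without a yeast counterpart, had a summit at 4792911, 54 bp before the start, with a score of 9.75. Its printed stretch holds 6 cores, and a GAGGAA lay 2.5 bp from the summit, at base 97. Rps15 (chromosome 10, 80292431 to 80294114), a small subunit protein of the decoding region, had a summit at 80292376, 55 bp before the start, with a score of 4.24, and its nearest core was 11.5 bp away. The printed stretch of Rps15 holds 2 cores and neither GAGGAAGT nor CCGGAAGT.

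Rpl18 (chromosome 7, 45715467 to 45720835) shows how the choice of gene ends matters. Its span in the gene table begins more than 2 kb before the start in the promoter table, so the 100 bp window around its ends misses a site of score 7.23 at 45718070, which stood 1 bp before the transcription start at 45718071. This summit was 2.60 kb from the nearer end of the span and 68 bp from an end of Sphk2, a sphingosine kinase gene. A further Rpl18 site, at 45716278 with a score of 8.86, lay 0.811 kb inside the lower end and within Sphk2.

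The other promoters with a site were similar in layout. Rpl37a had a summit 3 bp before the start with a score of 2.75, the lowest of all sites within 10 kb of a member. Rpl26, a large subunit protein that also binds the mRNA of p53, had one 18 bp before the start with a score of 6.61, and its nearest core lay 25.5 bp away. Rps19bp1 had one 61 bp before the start with a score of 6.40. Rpl27a had one 134 bp before the start with a score of 6.62, with a core centred 9.5 bp from it.

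Seen together, all 10 summits stood between 134 bp and 1 bp before the start, with a median of 17 bp before it. Of the 10, 8 lay within the last 60 bp before the start, against 179 of the 550 promoter windows of other genes that held a site (32.5%). The median position in those 550 windows was 56 bp before the start, and 80.5% of their summits were before it. The windows themselves fix part of this pattern, and the 10 promoters are too few to say more of it.

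**Figure D2:**
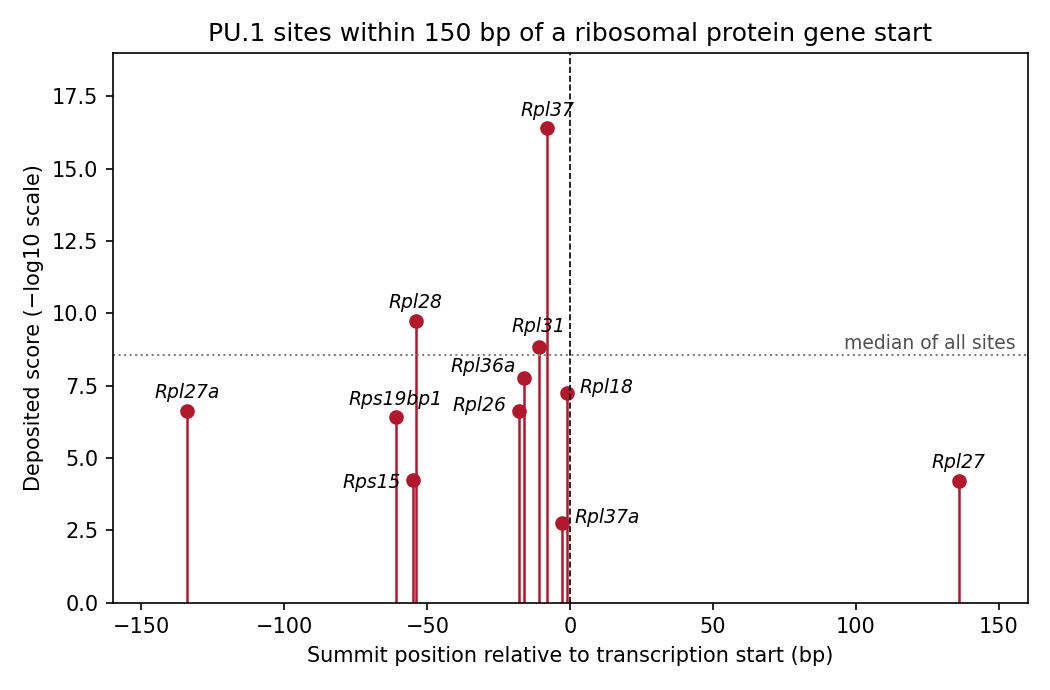
Position of each PU.1 summit within 150 bp of a transcription start of a ribosomal protein gene (horizontal axis, bp, negative values before the start) and its deposited score (vertical axis, −log10 scale), with the median of all sites as a dotted line. Rpl37 stands highest at 16.4, and all summits except that of Rpl27, 136 bp after the start, lie before the start.

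Strand was not known for 4 of the 12 genes. Among them, Rpl21 had a summit 16 bp inside its lower end with a score of 9.16, and Rpl30, which shares ancestry with archaeal ribosomal proteins, one 26 bp inside its upper end with a score of 3.72. Rps29, a small zinc-binding protein, had one 82 bp beyond its lower end with a score of 8.55 and was the last gene inside the 100 bp window. The next gene out, Rpl27a, lay at 134 bp.

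The 6 genes whose nearest site was between 100 bp and 1 kb away were less uniform. Rpl27a and Rpl27 had theirs near the start, and that of Rpl27, 136 bp into the gene, scored 4.21. Rpl22l1, a paralogue of Rpl22, had a site of score 6.57 at 0.171 kb beyond its transcription end, and Rps9 one of score 10.7 at 0.316 kb beyond its transcription end. A second Rps9 site, of score 10.8 at 8.54 kb, lay inside Pirb, an inhibitory immunoglobulin-like receptor gene of myeloid cells. The Rpl4 site, of score 10.4 at 0.755 kb beyond the transcription end, lay inside Snapc5 and 20 bp from one of its ends. Rpl18 at 0.811 kb was the last gene inside 1 kb, and Rpl12 at 1.26 kb, with a site of score 5.02 inside Lrsam1, the first outside it.

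Scores at these genes were not high. The 12 sites within 100 bp had a median score of 7.18 (quartiles 4.11 and 8.92), against 7.63 (quartiles 4.99 and 10.7) for the 425 sites within 100 bp of other genes only and 8.56 for all sites. Of the 12, 8 scored below the median of all sites. A score of 10 or more was reached by 1 of the 12 (8.33%), against 125 of the 425 (29.4%). Over the 33 sites within 10 kb of a member, the median was 7.51 (quartiles 5.74 and 9.42), against 8.35 for the 4474 sites within 10 kb of other genes only.

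Sites farther out often had another gene closer by. Of the 33 sites within 10 kb, 10 were nearer to an end of another protein-coding gene, whereas 0 of the 12 within 100 bp were. The median number of other protein-coding genes within 10 kb was 1 both for ribosomal protein genes and for other genes, with means of 1.57 and 1.09. Among genes whose nearest site was between 1 and 10 kb away, Rpl6 had the highest-scoring one, with a score of 12.2 at 6.93 kb, closer to Ptpn11, a phosphatase gene of growth factor signalling. Rpl3, a protein of the peptidyl transferase centre, had sites of score 11.2 at 5.55 kb and 5.40 at 2.86 kb, and no other protein-coding gene end lay nearer. Rpsa, the gene of a small subunit protein also known as a laminin receptor, had one of 11.2 at 9.36 kb, inside the mitochondrial carrier gene Slc25a38. Rps10, a small subunit protein, had one of 9.42 at 8.12 kb before its start. Rps27a, which encodes a ubiquitin fused to a small subunit protein, had a site of 5.78 at 1.58 kb inside Clhc1. Rpl8 had a site 4.17 kb away that stood 37 bp from an end of Commd5, and Rpl35 one 3.56 kb away that stood 0.284 kb from an end of Wdr38. These last 3 genes were named after their values were seen. Rpsa was the last gene inside 10 kb, and Rps14, at 11.3 kb, the first outside it.

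No site lay within 10 kb of the remaining 63 genes. For 7 of them the nearest site was 10 to 20 kb away (Rpl10, Rpl35a, Rpl38, Rpl41, Rpl7l1, Rps14 and Rps15a), for 19 it was 20 to 50 kb away, for 20 it was 50 to 100 kb away, and for 17 it was beyond 100 kb. The 19 include Rpl13a, Rpl14, Rpl15, Rpl23, Rpl32, Rpl36al, Rpl37rt, Rpl5, Rpl7, Rpl7a, Rplp0, Rplp1, Rps13, Rps16, Rps18, Rps23rg1, Rps25 and Rps27. The 20 include Rpl10a, Rpl19, Rpl29, Rpl31-ps12, Rpl32l, Rpl34, Rpl36, Rpl9, Rplp2, Rps12, Rps20, Rps26, Rps27l, Rps27rt, Rps28, Rps3, Rps3a1 and Rps7. Those beyond 100 kb are Rpl10l, Rpl13, Rpl17, Rpl22, Rpl23a, Rpl24, Rpl34-ps1, Rpl39, Rpl39l, Rpl3l, Rps19, Rps2, Rps21, Rps23, Rps24, Rps4x and Rps6. The median distance to the nearest site was 34.8 kb for ribosomal protein genes (quartiles 3.86 and 75.9 kb) and 51.2 kb for other genes (quartiles 12.2 and 179 kb). The genes known from human marrow failure or from the p53 pathway had no site within 1 kb. Rpl11, which with Rpl5 restrains Mdm2 when ribosome assembly fails, had sites 2.87 kb before its start (score 9.24) and 5.37 kb beyond its end (score 7.23). For Rpl5 the nearest site was 40.8 kb away. Rps19, the gene most often mutated in Diamond-Blackfan anaemia in humans, had its nearest site at 121 kb, and Rps14, lost in the human 5q- syndrome, at 11.3 kb.

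Of the 14 paralogue-like symbols, Rps19bp1 and Rpl22l1 had a site within 10 kb, and the other 12 had none. Among the 4 genes on chromosome X, Rpl10, Rpl36a, Rpl39 and Rps4x, Rpl36a was the one with a site within 10 kb. Of subunit genes that the symbol rule leaves out, Rack1, a scaffold protein of the small subunit, had its nearest site at 7.57 kb, and Fau, which encodes a ubiquitin-like protein fused to a small subunit protein, at 85.3 kb.

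Other genes of protein synthesis and turnover differed among themselves. Translation initiation factor genes (symbols Eif1 to Eif6) had a site within 100 bp in 7 of 55 cases (12.7%, interval 6.30 to 24.02) and genes with proteasome symbols in 6 of 51 (11.8%, interval 5.51 to 23.4), close to the 13.2% of ribosomal protein genes. Ribosome biogenesis genes had one in 2 of 50 cases (4%), mitochondrial ribosomal protein genes in 3 of 78 (3.85%) and Mediator genes in 1 of 30 (3.33%). Elongation and termination genes had 0 of 15 (Wilson upper limit 20.4%, or 20% by the limit of 3 counts that a count of 0 allows), and Rab genes 0 of 69 (5.27% and 4.35% by the same limits). No test was made between the lists, and the intervals of these lists overlap with that of the ribosomal protein genes, except for the Rab genes. In wider windows the order was different. Within 1 kb, Mediator genes had a site in 6 of 30 cases (20%), close to the 19.8% of ribosomal protein genes, and within 10 kb Mediator (46.7%), proteasome (39.2%), initiation (34.5%), biogenesis (34%) and Rab genes (33.3%) all had higher shares than the 30.8% of ribosomal protein genes.

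Among these genes, Psmc2, Eif3d and Eif3f carried sites of higher score than that of Rpl37 (16.4), the highest near a ribosomal protein gene. Psmc2, an ATPase subunit of the proteasome, had a site of score 28.1 at 5 bp, and Eif3d, a subunit of the initiation factor that recruits the small subunit, one of 27.4 at 14 bp. Eif3f, another subunit of that factor, had one of 19.4 at 0.221 kb. Below the score of Rpl37, Med8 of Mediator had a site of 14.5 at 75 bp and Mrps18c of the mitochondrial ribosome one of 11.3 at 9 bp. Psme3ip1, which the proteasome symbol pattern takes in although it encodes an interacting protein, had one of 14.2 at 0.282 kb. Scores below that of Rpl37 were also found at Rab24 (12.3 at 0.397 kb) and Rab11fip1 (12.1 at 0.584 kb), which encodes an effector and not a Rab. The same holds for Bysl (10.2 at 0.825 kb), a factor of small subunit assembly, and Med29 (9.57 at 0.874 kb). It also holds for Mrpl47 (7.71 at 0.307 kb) and Polr1d (5.997 at 0.847 kb), a polymerase subunit gene.

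**Figure D3:**
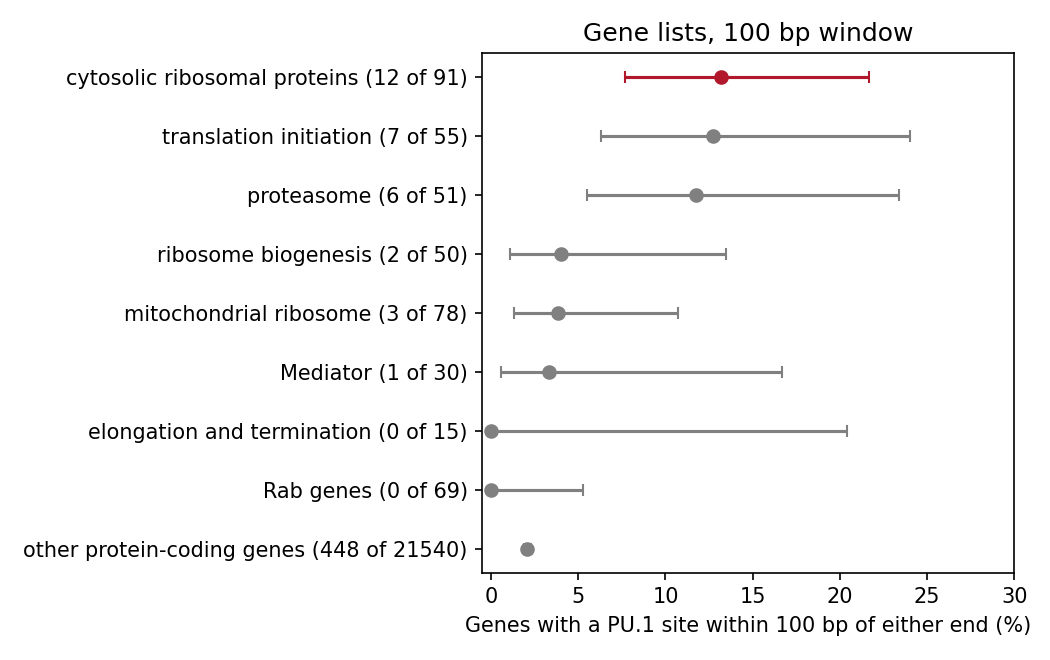
Share of genes with a PU.1 site within 100 bp of either end (horizontal axis, %) for the ribosomal protein genes (red) and for 7 lists and all other protein-coding genes (grey), with 95% Wilson intervals. Ribosomal protein (13.2%), translation initiation (12.7%) and proteasome genes (11.8%) lie close together, and all other protein-coding genes stand at 2.08%.

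The promoters of ribosomal protein genes held CCGGAA-type motifs more often than other promoters did. Motifs were searched on both strands over the 300 bases, in 82 promoters of 70 members and 20963 of other genes. GAGGAA contains GGAA and is part of GAGGAAGT, and CCGGAAGT contains CCGGAAG and GGAA, so that these counts overlap. The bare GGAA was in 81 of 82 ribosomal protein promoters (98.8%) and 95.7% of others. CCGGAAG was in 27 of 82 (32.9%, interval 23.7 to 43.7), against 11.6% of other promoters, and CCGGAAGT in 12 of 82 (14.6%, interval 8.57 to 23.9), against 5.16%. The purine-rich forms were about as frequent as elsewhere, with GAGGAA in 24 of 82 (29.3%), against 27.2%, and GAGGAAGT in 3 of 82 (3.66%), against 3.15%.

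GAGGAA was in 5 of the 10 ribosomal protein promoters with a site (50%, interval 23.7 to 76.3) and in 19 of the 72 without one (26.4%, interval 17.6 to 37.6), 2 shares whose intervals overlap. In other genes it was in 263 of the 550 promoters with a site (47.8%). These counts take GAGGAA anywhere in the window. Within 20 bp of the summit it was in 3 of the 10 ribosomal protein promoters (30%) and in 135 of the 550 others (24.5%). CCGGAAGT was in 3 of the 10 with a site, Rpl26, Rpl31 and Rpl37, and in 9 of the 72 without one, namely in Rpl11, Rpl19, Rpl35, Rpl41, Rps18, Rps25, Rps27l, Rps6 and Rpsa. GAGGAAGT was in Rpl36a, with a site, and in Rpl13a and Rpl35, without one in the promoter. Among promoters with a site, CCGGAAG was in 4 of the 10 of ribosomal protein genes (40%, interval 16.8 to 68.7), against 27.8% of the 550 others, and CCGGAAGT in 30% (interval 10.8 to 60.3), against 15.1%, so that the intervals include the values of the other promoters. The median distance from summit to the nearest core centre was 5.5 bp in both the 10 ribosomal protein promoters and the 550 others, and a core lay within 20 bp in 9 of the 10 and in 487 of the 550 (88.5%). A motif match describes the sequence and does not show which factor binds it.

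A pyrimidine-rich start, taken as a C at the first transcribed base followed by 4 bases that are C or T, was found in 15 of 82 ribosomal protein promoters (18.3%, interval 11.4 to 28.01), against 454 of 20963 others (2.17%). It was in 1 of the 10 promoters with a site, that of Rpl28, and in 14 of the 72 without one (19.4%). The count depends on the exact base that the annotation gives as the start.

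**Figure D4:**
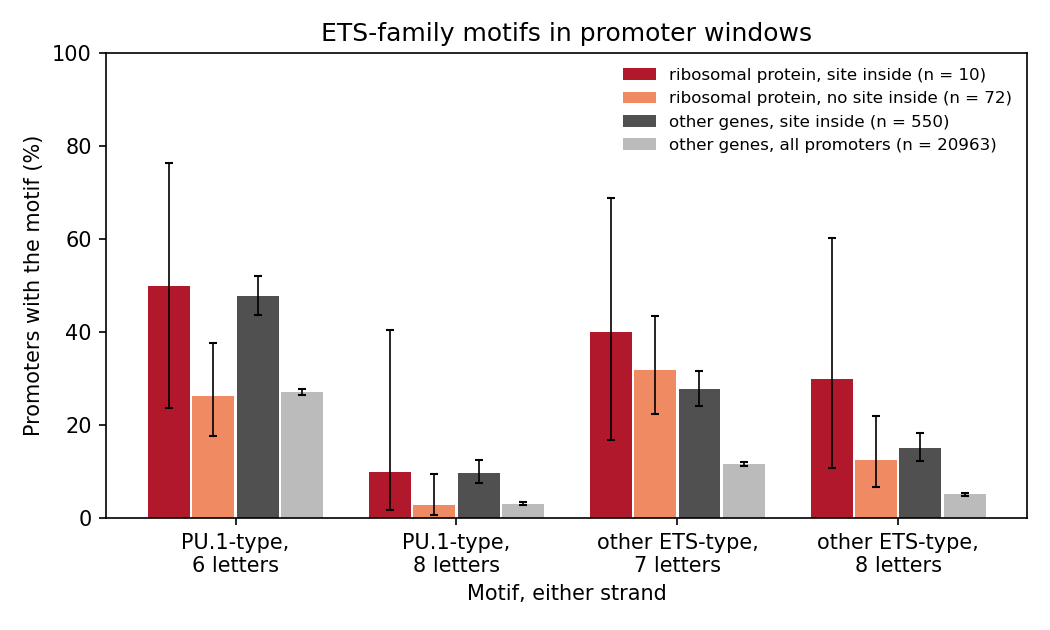
Share of promoter windows (vertical axis, %) that hold the purine-rich PU.1-type motif (6 or 8 letters) or the CCGGAA-type motif of other ETS factors (7 or 8 letters) on either strand, for ribosomal protein promoters with a site inside, those without, other promoters with a site inside and all other promoters, with 95% Wilson intervals. For the 7-letter CCGGAA-type motif, ribosomal protein promoters without a site stand at 31.9% and all other promoters at 11.6%.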

How the data were processed

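PU.1 ChIP-seq libraries of AML-246 cells from Dox-treated (3 libraries) and untreated mice (2 libraries) were analysed as 1 deposited list of summits. Software named in the submitters' processing notes is CASAVA 1.8.2 and MACS2, with the build mm10. For the aligner, the MACS2 settings and the handling of technical replicates, the sources used here state nothing. The values the authors deposited are −log10 scores, without a statement of whether p-values or q-values underlie them. Depth is unknown. The name of the list sets high against low, and it was read in that direction.

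From it, distances between summits and gene ends were computed for the RefSeq genes of GRCm38.p6 (Python 3.11.15, pandas 2.3.3), with Wilson intervals for shares and log-normal intervals for ratios. The gene table has no strand. Strand and promoters came from a RefSeq promoter table that matched 70 members. The distance code was tested on simulated data, with sites placed at known distances from 200 genes. The members, windows and lists were chosen with earlier results of these data known, so no test was made. Genes named are those with a site within 1 kb, the 5 with the highest-scoring site among those whose nearest site is 1 to 10 kb away, those at each window's edge, Rpl5, Rpl11, Rps14, Rps19, Fau and Rack1, and the 2 highest-scoring genes within 1 kb in each list. Some genes that this rule takes are not reported here. Alternatives changed the minimum score, the assignment of sites, the gene end, the members and the background genes.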

Additional observations from a re-analysis of the deposited data

How the results depend on the processing

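Of the 56 values recomputed under 9 alternative settings and 1 for the median scores, 47 stayed within the interval of the value reported. Some of these could not move. A change of the background genes leaves the shares of ribosomal protein genes as they are. The highest-scoring site per gene leaves the medians within 100 bp and 1 kb as they are, since each gene counted there had 1 site. The interval of the 10 kb ratio spanned 1 without chromosome X (0.986 to 1.85) and with a site counted for the closest gene end alone (0.961 to 2.04). It did so too at or above the lower quartile of scores (0.921 to 1.95) and without predicted-only symbols among the other genes (0.972 to 1.804). The same held with a score of at least 10 (0.334 to 1.57). With a score of at least 10, the share of ribosomal protein genes with a site was 1.10% within 100 bp, 3.30% within 1 kb and 6.59% within 10 kb. The ratios to other genes were then 1.79 (0.253 to 12.7), 1.61 (0.528 to 4.93) and 0.725 (0.334 to 1.57). The direction at 10 kb was reversed, but each of these intervals spanned 1. The cause was not tested. With the transcription end alone, the shares were 0% within 100 bp and 4.29% within 1 kb, and the ratios within 1 kb and 10 kb were 3.76 and 2.01. That 10 kb ratio also counts sites nearer the start of short genes. A ratio within 100 bp could not be given there. At or above the lower quartile of scores, 8.79% of members had a site within 100 bp, with a ratio of 6.35. Against other genes within the members' range of spans, the 100 bp ratio was 6.67. No paired analysis was possible because the summits carry no value for any single library, which also means that no library could be left out. The unknown depth and the single list limit all counts.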

Other observations

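Ribosomal protein genes have many processed copies in the genome, which carry the transcribed sequence but not the promoter. These values were added after the data were seen. Of 324 annotated ribosomal protein pseudogenes, 0 had a site within 100 bp of an end, which allows a share of up to 0.926% by the limit of 3 counts (Wilson upper limit 1.17%), and 4 (1.23%) had one within 1 kb. Other pseudogenes had one within 100 bp in 14 of 10184 cases (0.137%) and within 1 kb in 0.933%. The 100 bp share of other pseudogenes is so low that 0 of 324 does not set the ribosomal protein copies apart. Whether the missing promoter matters was not tested. Within 10 kb the shares were 10.2% of ribosomal protein pseudogenes and 6.75% of other pseudogenes.

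Many ribosomal protein genes host small nucleolar RNA genes in their introns, whose products guide the modification of ribosomal RNA. Of the 91 genes, 30 had at least 1 annotated snoRNA gene within their span. A site lay within 100 bp of 3 of these 30 (10%, interval 3.46 to 25.6) and of 9 of the 61 without one (14.8%, interval 7.96 to 25.7). Of 10 members with no other protein-coding gene within 10 kb, 1 had a site within 100 bp and 3 had one within 10 kb. Among all other protein-coding genes, isolated or not, the shares were 2.08% and 22.3%. The shares for isolated other genes alone were not computed, so these counts do not set the members apart.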
